A study of Arabidopsis thaliana with 12 samples.

Results

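GTE4 and the 4 members of the EML gene family, EML1, EML2, EML3 and EML4, were followed across wild type and 3 mutant lines of Arabidopsis thaliana. The members were taken by gene ID as AT1G06230 (GTE4), AT3G12140 (EML1), AT5G06780 (EML2), AT5G13020 (EML3) and AT2G44440 (EML4). They are 5 of the 32548 genes in the deposited expression table, and all 5 were among the 22315 genes that were tested, those averaging 1 or more over all samples. The 12 RNA-seq samples were 3 each of wild type, gte4-/-, eml1-/-eml2-/- and gte4-/-eml1-/-eml2-/-, the last called the triple line here. All were seedlings aged 20 days that had spent 12 days on Murashige and Skoog plates and the rest in soil, with 16 h of light and 8 h of dark at 22 °C. Total RNA was isolated with TRIzol and sequenced as 150-base read pairs. The labels name no other allele or agent, and they give neither the mutant alleles and where they interrupt each gene nor whether the 3 samples of a genotype were separate plants, pools or RNA preparations, so a p-value here reflects just the variation among the 3 samples of each line, which may be technical. Values are normalized read counts as deposited, given as mean ± SD with n = 3.

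GTE4 belongs to the BET-type bromodomain proteins, whose bromodomain binds acetylated lysines on histone tails, and it is known for keeping cells of the root meristem in the mitotic cycle. EML proteins are named for their likeness to human EMSY and carry an ENT domain together with an Agenet domain of the Tudor-like group, which includes readers of methylated histones. EML genes are known in Arabidopsis for roles in EDM2-dependent immunity to downy mildew and in seed development. By its title, the study sees GTE4 and EML proteins as 1 reader complex for histone acetylation and H3K4 trimethylation, and the comparisons bear on what happens to the transcripts of its members when others are mutated.

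The 4 EML genes resemble each other in sequence, which matters for reading their values apart, so a coding stretch of 75 bases that aligned among all 4 without a gap is shown here. Sequences are from RefSeq (build TAIR10.1), each read 5′ to 3′ on the gene's own minus strand and lying within 1 exon. Capitals mark bases that differ from EML1.
EML1: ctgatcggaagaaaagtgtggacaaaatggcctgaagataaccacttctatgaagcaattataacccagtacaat
EML2: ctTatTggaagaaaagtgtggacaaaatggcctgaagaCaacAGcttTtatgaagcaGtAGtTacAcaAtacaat
EML3: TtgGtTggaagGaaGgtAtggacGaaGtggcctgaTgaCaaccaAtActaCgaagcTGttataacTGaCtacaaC
EML4: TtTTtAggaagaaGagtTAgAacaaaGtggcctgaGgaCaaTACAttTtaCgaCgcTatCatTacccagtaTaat
These stretches lie at chr3:3870189-3870263 for EML1, chr5:2095627-2095701 for EML2, chr5:4130935-4131009 for EML3 and chr2:18337609-18337683 for EML4. EML2 differs from EML1 at 12 of the 75 bases, EML3 at 19 and EML4 at 22. The run that EML1 and EML2 share here, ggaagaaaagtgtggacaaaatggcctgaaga, is 32 bases long and is the longest exact match between the annotated transcripts compared for that pair. It is shorter than a 150-base read. For the other EML pairs the longest exact match was 12 to 19 bases.

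EML1 and EML2 are the closest pair of the family. Their proteins of 383 and 320 residues were identical at 69.97% of aligned residues, against 50.3% to 59.3% for the other 5 pairs of EML proteins. EML3 encodes 397 residues and EML4 429. GTE4, at 766 residues, aligned to the EML proteins over short parts with 19.9% to 24.0% identity, and its closest other locus by nucleotide search was AT1G73150, over 227 bases at 73.6% identity. In the RefSeq annotation no exon base of any of the 5 genes overlapped another gene; how reads were assigned to genes is not given in the sources used here.

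The libraries were alike in scale, with totals of 31990484 to 34322625. Read depth is unknown because whole read counts could not be recovered. All 5 leaf genes listed were detected in every genotype, with a summed value of 1338504 to 1686260. Some of these 5 differed between genotypes, as given below. The root stem cell gene PLT1 was listed at 0 in all samples of wild type, gte4 and eml1 eml2. Inflorescence and tapetum genes were present at low levels, and their values are given below beside the results they move with.

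In wild type, EML3 had the highest level per exon length and EML4 the lowest. EML3 stood at 630.1 ± 19.7 normalized counts per kb of exon, GTE4 at 469 ± 20.2, EML1 at 362 ± 27.1, EML2 at 337 ± 22.2 and EML4 at 167 ± 20.7. The samples of EML1 and EML2 overlapped on this scale, and no other neighbours in the order did. Among the tested genes, these levels put EML3 at the 78.0th percentile, GTE4 at the 71.7th and EML4 at the 47.9th. The place of EML1 depended on the annotated length: with the length of 1 transcript instead of all exons its level per kb was 515, close to the 529 of GTE4 and apart from the 338 of EML2.

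**Figure D1:**
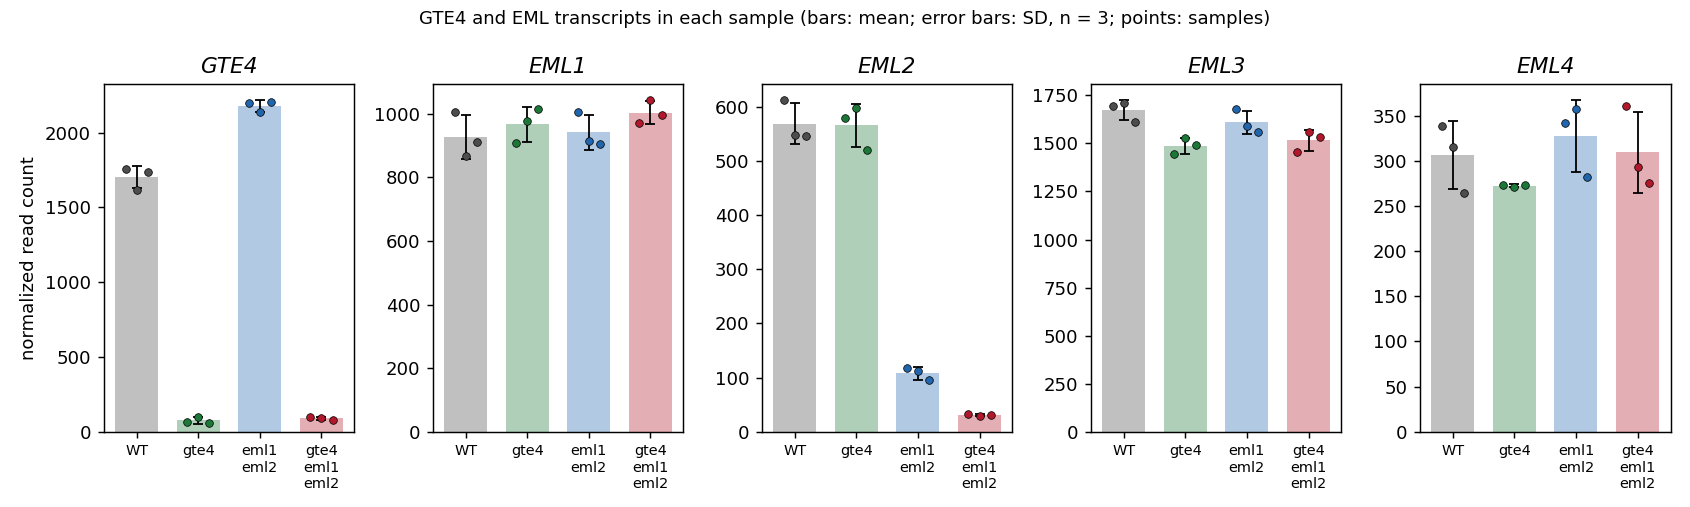
Normalized read count (vertical axes, from 0) of each member in the 12 samples, by genotype; bars are means, error bars SD (n = 3) and points samples. GTE4 is low in both lines that carry gte4 and highest in eml1 eml2, EML2 is low in eml1 eml2 and lower still in the triple line, and EML1 is at a like level in all 4 genotypes.

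GTE4 transcript was nearly lost in both lines labelled as gte4 mutants. Its values were 1753, 1618 and 1737 in wild type, 64.7, 99.2 and 61.0 in gte4, and 97.3, 93.9 and 78.6 in the triple line. Every gte4 and triple sample was far below every wild type sample, while gte4 and the triple line overlapped. Relative to the wild type mean, 4.40% ± 1.24 was left in gte4 and 5.28% ± 0.585 in the triple line. GTE4 had the largest called fall among all tested genes in gte4 (log2 change -4.52, SE 0.143, limma adjusted p = 1.74e-10) and in the triple line (-4.23, adjusted p = 2.18e-10). The difference between the triple line and gte4 was 0.29 (adjusted p = 0.227, 95% interval of the change -1.24% to 50.9%), and without gte4 replicate 2, the highest of its 3 samples, it was 0.50 (adjusted p = 0.0283).

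In the line labelled eml1 eml2, by contrast, all 3 samples had more GTE4 than any wild type sample, though the difference missed the threshold. GTE4 stood at 2197, 2134 and 2202 there, which is 128% ± 2.24 of the wild type mean. The groups did not overlap, as was the case for 38.9% of all tested genes in this comparison. The log2 change was 0.36 (SE 0.143, adjusted p = 0.0878), with a 95% interval from 3.51% to 58.2% above wild type. Fitting these 2 genotypes alone brought it past the threshold (adjusted p = 0.00152), as did leaving out gte4 replicate 2 (0.00807), and the alternatives spanned 0.00152 to 0.327. The interaction, the change in the triple line less those of both other mutants, was -0.07 for GTE4 (adjusted p = 0.923).

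EML2 transcript fell strongly in the line labelled eml1 eml2 and was lower again in the triple line, while gte4 alone showed no difference beyond the spread. Its values were 612, 549 and 546 in wild type and 580.3, 597 and 521 in gte4. They were 117, 112 and 94.7 in eml1 eml2 and 32.1, 28.8 and 31.4 in the triple line. Wild type and gte4 overlapped, and the other 2 genotypes were separate from these and from each other. The share of the wild type mean was 99.5% ± 7.06 for gte4, 18.95% ± 2.05 for eml1 eml2 and 5.40% ± 0.306 for the triple line. Against wild type, EML2 had a log2 change of -2.39 for eml1 eml2 (adjusted p = 3.04e-09) and -4.17 for the triple line (adjusted p = 4.16e-13), while that for gte4 was -0.01 (adjusted p = 0.971, 95% interval -15.8% to 17.5%).

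The loss of EML2 was therefore deeper where gte4 was also mutated. The triple line held 3.42-fold less EML2 than eml1 eml2 (log2 change -1.77, SE 0.114, adjusted p = 3.27e-07), with a 95% interval of -75.2% to -65.4%. The interaction was -1.77 (SE 0.161, adjusted p = 1.59e-05): the change in the triple line exceeded those of both other mutants added together. In this comparison of the triple line with eml1 eml2, 1.66% of all tested genes passed the test and 1.23% were lower, and 2 of the 5 members were among the latter, GTE4 (-4.59) and EML2. By size of fall, EML2 held rank 81 among all tested genes, called or not. Whether the triple line carries the same EML2 allele, or was made from the same eml1 eml2 plants, is not given by the labels, so an effect of gte4 and a difference between lines cannot be told apart.

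**Figure D2:**
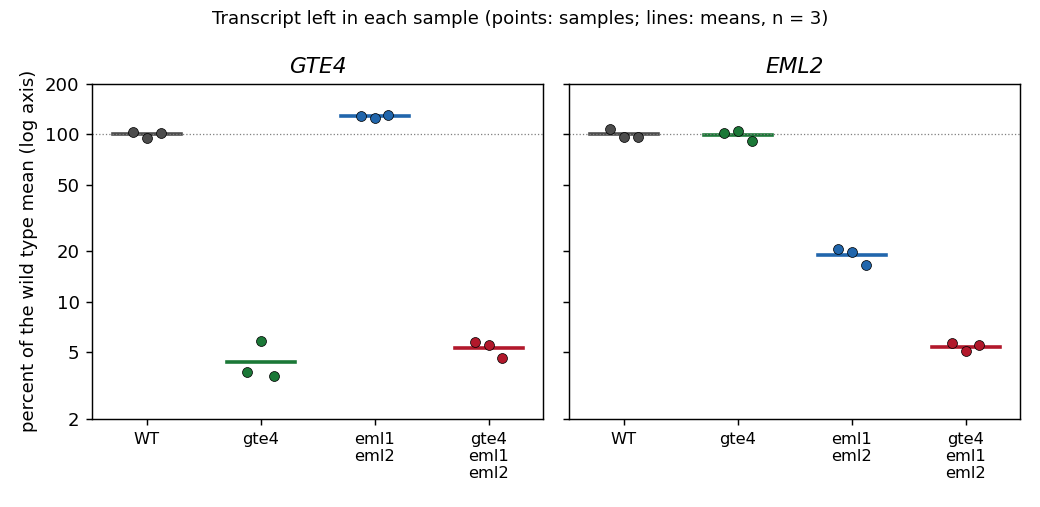
GTE4 and EML2 in each sample as percent of the wild type mean (vertical log axis); points are samples and lines genotype means (n = 3). GTE4 is at 4.40% in gte4 and 5.28% in the triple line, and EML2 steps from 18.95% in eml1 eml2 to 5.40% in the triple line.

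EML1 was not reduced in either line labelled as an eml1 mutant. Its values were 1004, 868 and 911 in wild type, 1006, 913 and 907 in eml1 eml2, and 973, 1043 and 997 in the triple line. In gte4 it stood at 907, 978 and 1015. All 4 genotypes overlapped. Its log2 change was 0.02 in eml1 eml2 (adjusted p = 0.860, 95% interval -8.37% to 12.6%), 0.12 in the triple line (adjusted p = 0.222, -2.22% to 20.1%) and 0.06 in gte4 (adjusted p = 0.585, -5.93% to 15.6%). A value summed over the gene does not show whether the transcript is interrupted or codes for protein. The eml1 genotype thus could not be checked, and the lines are named here as labelled.

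EML3 was slightly lower in gte4, the sole change past the threshold among the EML genes in a line that carries no eml mutation. Its values were 1694, 1711 and 1613 in wild type, 1445, 1527 and 1491 for gte4, 1679, 1591 and 1559 for eml1 eml2, and 1456, 1558 and 1535 for the triple line. Neither gte4 nor the triple line overlapped wild type, whereas eml1 eml2 did. The log2 change of gte4 was -0.17 (SE 0.0535, adjusted p = 0.0282), with a 95% interval of -17.8% to -3.81%. It no longer passed when WT replicate 1 (adjusted p = 0.0682), WT replicate 2 (0.0924) or gte4 replicate 1 (0.103) was left out, when these 2 genotypes alone were fitted (0.0622), or when a trend over exon length was removed (0.0558). In the triple line the log2 change was -0.14 (adjusted p = 0.0508, 95% interval -16.2% to -1.97%), and over the alternatives its adjusted p ranged from 0.00403 to 0.178. In eml1 eml2 it was -0.06 (adjusted p = 0.501, interval of the log2 change -0.17 to 0.06).

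EML4, the least abundant member per exon length, passed against wild type in none of the mutants. Its values were 339, 316 and 265 in wild type, 273, 271 and 274 for gte4, 342, 358 and 283 for eml1 eml2, and 361, 294 and 275 for the triple line. The 3 gte4 samples were close together, with a coefficient of variation of 0.555%, against 12.2% to 14.5% in the other genotypes. Against wild type its log2 change was -0.16 in gte4 (adjusted p = 0.366, 95% interval -25.1% to 6.73%), 0.10 in eml1 eml2 (adjusted p = 0.619, -10.4% to 27.6%) and 0.01 in the triple line (adjusted p = 0.944, -15.4% to 20.5%).

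**Figure D3:**
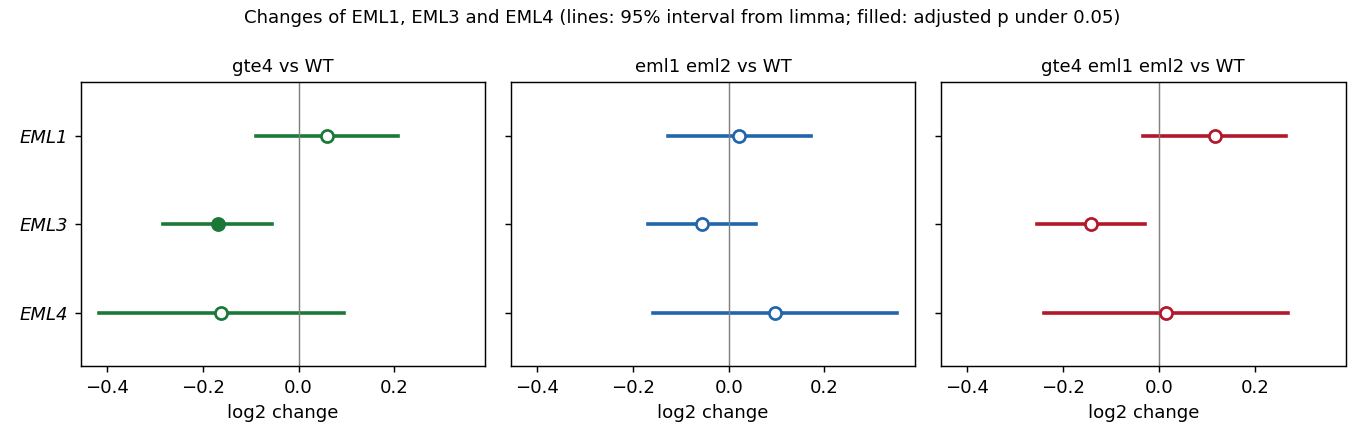
Log2 change against wild type (horizontal axis) of EML1, EML3 and EML4 in each mutant; lines are 95% intervals from limma and filled points passed an adjusted p of 0.05. EML3 in gte4, at -0.17, is the filled point, and the intervals of EML1 and EML4 all include 0.

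Counted over the members, 2 of 5 passed as lower in gte4 against wild type (GTE4 and EML3), 1 of 5 in eml1 eml2 (EML2) and 2 of 5 in the triple line (GTE4 and EML2), and none passed as higher. Of all tested genes, 25.9%, 23.6% and 33.6% passed in these comparisons, with 13.8%, 12% and 18.2% lower. A count of 1 or 2 of 5 members is no result beside these shares, and it is the size of the changes that sets GTE4 and EML2 apart. Between the triple line and gte4, 9.55% of all genes passed and 5.08% were lower, and EML2 was the 1 member among them (log2 change -4.16, adjusted p = 8.6e-13). Between eml1 eml2 and gte4, 13.5% of all genes passed, 7.76% higher and 5.77% lower, and GTE4 (4.88 higher in eml1 eml2, adjusted p = 1.21e-10) and EML2 (-2.38, adjusted p = 3.21e-09) did. Of the interactions, 2.94% passed and 1.92% were negative, EML2 among them. Samples that do not overlap were common in this table: among all tested genes they made up 39.2% for gte4, 38.9% for eml1 eml2 and 45.6% for the triple line against wild type. They made up 29.8% for the triple line against gte4, 19.9% against eml1 eml2, and 33.5% for eml1 eml2 against gte4. The comparisons against wild type share its 3 samples.

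Summed over the 4 genes, EML transcript per exon length was lower in both lines labelled as eml1 eml2 mutants, and without EML2 the sum was near wild type. The sum was 1577, 1480.2 and 1430.5 normalized counts per kb in wild type, 1390.3, 1458 and 1415 in gte4, 1279.9, 1217 and 1151 in eml1 eml2, and 1143, 1170.4 and 1136 in the triple line. The mutant samples of the last 2 lines lay below all wild type samples, while gte4 overlapped wild type. The sum was 81.3% of wild type in eml1 eml2 and 76.9% in the triple line (each exact two-sided permutation p = 0.1, which is the smallest p that 3 against 3 samples can give). In gte4 it lay 5.01% below wild type (exact permutation p = 0.2). The sum of EML1, EML3 and EML4 stayed at 99.4% of wild type in eml1 eml2 (exact permutation p = 0.7) and 97.6% in the triple line (exact permutation p = 0.6). No rise of the other EML genes beyond the spread was thus seen where EML2 was low.

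The make-up of the family sum shifted with EML2. EML2 made up 22.5% of the EML sum per kb for wild type, 23.6% for gte4, 5.25% for eml1 eml2 and 1.59% for the triple line. EML3 was the largest share in every genotype, from 39.4% in gte4 to 49.9% in eml1 eml2. EML1 went from 24.2% in wild type to 34.1% in the triple line, where the sum was smaller. Its own level per kb was 362 ± 27.1 in wild type and 392 ± 13.9 in the triple line, a difference not beyond its spread.

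**Figure D4:**
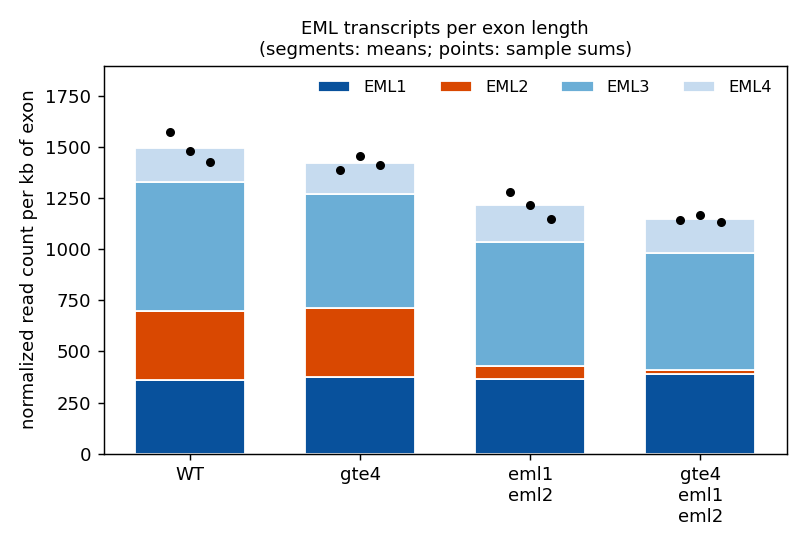
Normalized read count per kb of exon (vertical axis, from 0) of the 4 EML genes, stacked as genotype means, with the sum of each sample as a black point (3 per genotype). The EML2 segment shrinks from 337 in wild type to 18.2 in the triple line while the EML1, EML3 and EML4 segments keep nearly their heights.

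Over the 12 samples, the members did not vary as 1 group. The highest Pearson r between members was 0.81, between GTE4 and EML3, and it was 0.16 once each genotype's mean was subtracted. Within genotypes the highest values were 0.63 for EML2 with EML4 and 0.58 for EML1 with EML3. These values describe 12 samples in 4 genotypes and share library effects.

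Among 16733 genes other than the members with a mean of at least 50, the patterns most like each member's over the 12 samples were found by Pearson's r of log2 values. For GTE4 they were AT5G08600 (r = 0.969), annotated as a U3 ribonucleoprotein family protein, AT2G01130 (0.968), an RNA helicase, and AT1G69020 (0.968), a peptidase. AT5G08600 had 148 ± 27.5 normalized counts in wild type against 46.1 for gte4, 128 for eml1 eml2 and 52.7 for the triple line, so it was low where GTE4 was low but showed no excess in eml1 eml2. For EML2 they were AT2G46600 (0.975), a calcium-binding protein, HAP6 (0.960), a subunit of the oligosaccharyl transferase, and AT1G77750 (0.957), a ribosomal protein. AT2G46600 went from 1424 in wild type and 1477 in gte4 to 1010.5 in eml1 eml2 and 842 in the triple line. Like EML2, it was lower in eml1 eml2 and lowest in the triple line, over a smaller range.

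The members that changed little had matches of lower Pearson r, given in brackets below, but by rank this order did not hold. Spearman's rho was 0.713 to 0.839 for the 3 genes named for GTE4 and 0.909 to 0.965 for those of EML2. It was 0.937 to 0.944 for those of EML3, 0.790 to 0.937 for EML4 and 0.776 to 0.804 for EML1. For EML3 the closest were CYP705A15 (0.944), a cytochrome P450, AT5G07630 (0.939), a lipid transporter, and AT5G53080 (0.931), a tetratricopeptide repeat protein. For EML4 they were AT2G24530 (0.903), with an annotation that names SAGA, AT3G57980 (0.902), a bromodomain protein, and AT1G64625 (0.890). For EML1 they were SPP2 (0.875), a sucrose phosphatase, NAGS2 (0.867), an acetylglutamate synthase of arginine synthesis, and AT1G11303 (0.838).

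The genes beside the members were examined to set each change next to that of adjacent loci. GTE4 is followed after 38 bases, on the same strand, by AT1G06240, a protein of unknown function. AT1G06240 was lower than wild type in all 3 mutants: it stood at 521, 658 and 649 in wild type, 469, 474 and 478 in gte4, 436, 468 and 428 in eml1 eml2, and 399, 410.4 and 415 in the triple line. No mutant sample reached a wild type sample. Its log2 change was -0.36 in gte4 (adjusted p = 0.00637), -0.45 in eml1 eml2 (adjusted p = 0.00143) and -0.57 in the triple line (adjusted p = 0.000103). It was thus lower also in the line where GTE4 itself was not reduced. CLE3, 664 bases before GTE4 and the gene of a small signalling peptide, was listed at 0 in all samples.

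The genes flanking EML2 did not pass against wild type in any line, although EML2 between them was strongly reduced. AT5G06770, a zinc finger protein, stood at 462 ± 15.6 in wild type, 440.3 ± 14.9 in eml1 eml2 and 429 ± 3.27 in the triple line. AT5G06790 stood at 117 ± 3.64, 111 ± 17.5 and 109.6 ± 14.0 in the same order. EML1 has a gene of the same zinc finger family on the same side, AT3G12130, which also did not pass (734 ± 6.07 in wild type, 801 ± 28.5 in eml1 eml2, 825 ± 67.8 in the triple line). AT3G12130 did pass in some alternatives: in gte4 in 6 of 23, such as a replicate block (0.20, adjusted p = 0.0376), and in the triple line in 3, such as with the length trend removed (0.22, adjusted p = 0.0194). On the other side of EML1, FLR1, a leucine-rich repeat protein, was higher in gte4 (log2 change 0.49, adjusted p = 0.0326, lost without any 1 of the gte4 replicates, at 0.0699 to 0.091, and at 0.33 without WT replicate 1) and in eml1 eml2 (0.72, adjusted p = 0.0063), and stood at 1871 ± 302 in the triple line against 1515 ± 290 in wild type (adjusted p = 0.133).

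The neighbours of EML3 moved in opposite directions. AT5G13030, which starts 110 bases away on the other strand and is annotated as selenoprotein O, fell from 3672 ± 34.5 in wild type to 3266 ± 106 in gte4 (-0.17, adjusted p = 0.0111) and 3100.3 ± 90.2 in the triple line (-0.24, adjusted p = 0.000554). EML3 stood at log2 changes of -0.17 in gte4 and -0.14 in the triple line, the second of which did not pass. The call of AT5G13030 in gte4 was lost without gte4 replicate 2 (adjusted p = 0.0521). EMB3011, an RNA helicase on the other side, rose from 2204 ± 136 in wild type to 2611 ± 45.7 in eml1 eml2 (0.25, adjusted p = 0.00962) and 2788 ± 111 in the triple line (0.34, adjusted p = 0.000575). The first of these calls was lost with the length trend removed (0.08, adjusted p = 0.258) and without WT replicate 2 (adjusted p = 0.0586), and the second was 0.18 with the length trend removed (adjusted p = 0.0106).

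Beside EML4, AT2G44430, a bromodomain protein, did not pass in any comparison with wild type. BGLU15, a beta-glucosidase, was higher than its wild type value of 83.0 ± 12.9 in gte4 (132 ± 28.4, adjusted p = 0.0218), eml1 eml2 (146 ± 37.3, adjusted p = 0.00821) and the triple line (131 ± 12.1, adjusted p = 0.0152). With gte4 the call did not hold when WT replicate 2 (adjusted p = 0.0846), WT replicate 3 (0.0636), gte4 replicate 1 (0.109) or gte4 replicate 3 (0.0603) was left out, nor without the trend and robust steps (0.0573). For the triple line it did not hold with WT replicate 2 (0.0673) or its own replicate 2 (0.0645) left out.

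**Figure D5:**
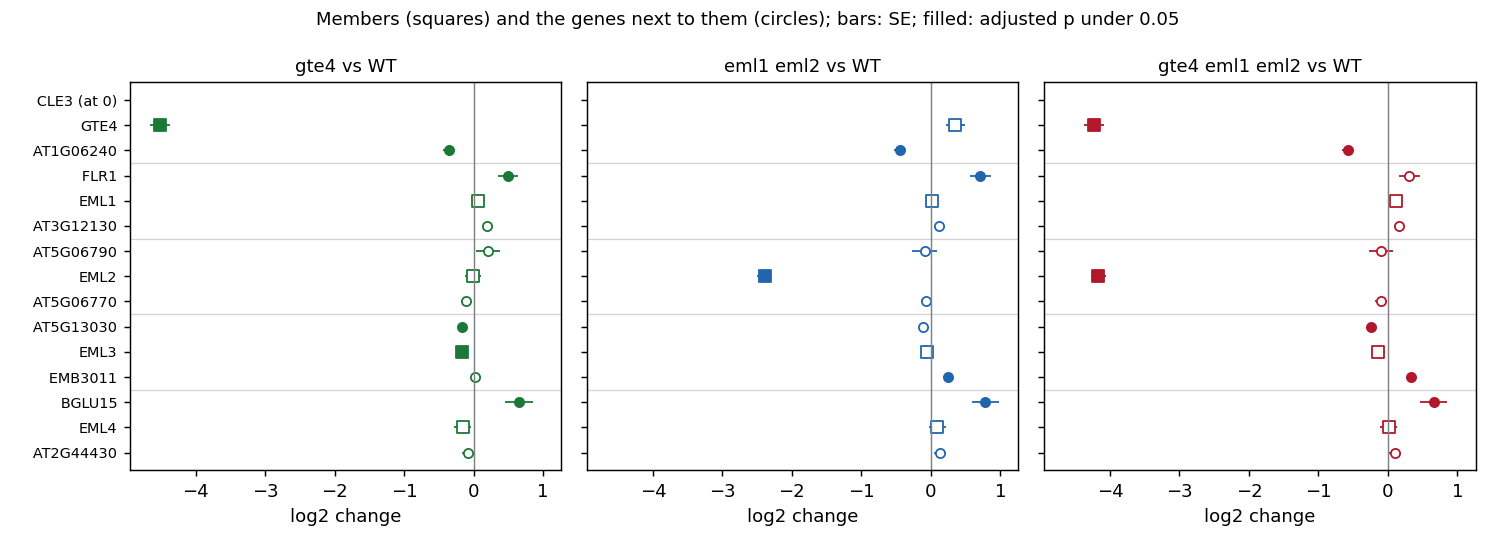
Log2 change against wild type (horizontal axis) of the 5 members (squares) and the annotated genes on either side (circles), 1 panel per mutant; bars are SE and filled symbols passed an adjusted p of 0.05. GTE4 (-4.52 and -4.23) and EML2 (-2.39 and -4.17) stand far to the left, and no neighbour moved by more than 0.78.

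The relatives and partners of the members in the same pathways were counted from lists. Of the 11 other GTE bromodomain genes, 0 were higher and 1 lower in gte4, 2 were higher and 0 lower in eml1 eml2, and 2 were higher and 1 lower in the triple line. Over the alternatives these counts ran from 0 to 1 higher and 0 to 2 lower in gte4, 1 to 2 and 0 to 1 in eml1 eml2, and 2 to 3 and 0 to 3 in the triple line. In the comparisons with wild type, 12.1%, 11.6% and 15.4% of all tested genes were higher, beside the shares lower given above. The median log2 change of the list was -0.03, 0.06 and 0.03 in these lines, and that of all tested genes was within 0.01 of 0. NPX1, a bromodomain protein, stood at 1013, 744 and 816 in wild type and at 1381, 1465 and 1266 in the triple line (log2 change 0.69, adjusted p = 4.35e-05), and it was also higher in eml1 eml2 (0.59, adjusted p = 0.000346). GTE8 was higher in the triple line (1538 ± 75.5 in wild type, 1847 ± 51.6, log2 change 0.27, adjusted p = 0.00413; 0.16 with the length trend removed, adjusted p = 0.0246). GTE7 was lower there (5042 ± 787 in wild type, 3323 ± 377, adjusted p = 0.0305), which did not hold with WT replicate 2 or 3 or triple replicate 1 or 2 left out (adjusted p 0.0595 to 0.0955), and had an adjusted p of 4.35e-08 with a replicate block. With that block GTE7 was also lower in eml1 eml2 (-0.34, adjusted p = 7.51e-05, against 0.214 without it), and NPX1 was higher in gte4 (0.26, adjusted p = 0.0193, against 0.0519).

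Among 12 genes that place or remove histone acetylation, the mark GTE4 binds through its bromodomain, 1 was higher and 3 lower in gte4, 2 and 1 in eml1 eml2, and 3 and 3 in the triple line. Over the alternatives these counts ran from 1 to 2 higher and 2 to 3 lower in gte4, 2 to 3 and 0 to 3 in eml1 eml2, and 2 to 4 and 2 to 5 in the triple line. For all tested genes the shares were 12.1%, 11.6% and 15.4% higher and 13.8%, 12% and 18.2% lower. The median log2 change of the list was -0.10, 0.01 and -0.004. HAF1, of the TAF1 family of acetyltransferases, had 1812 ± 141 normalized counts in wild type, 1922 ± 161 with gte4 mutated, 2498 ± 85.7 for eml1 eml2 and 2517 ± 133 for the triple line, where its log2 change was 0.47 (adjusted p = 7.11e-05; 0.25 with the length trend removed, adjusted p = 0.000725). HAM2, a MYST-type acetyltransferase, stood at 435, 442 and 413 in wild type and fell to 346, 318 and 324 in the triple line (-0.38, adjusted p = 0.00242). HDA19, a histone deacetylase, rose from 3630 ± 139 to 4395 ± 262 (0.27, adjusted p = 0.000601). HAG1, the GCN5 acetyltransferase, was lower in the triple line (-0.29, adjusted p = 0.0349), and lost the call without WT replicate 2 or 3 or any 1 replicate of the triple line (0.0563 to 0.163), and also with median-of-ratios scaling (0.054), without the trend and robust steps (0.0564) and with 2 genotypes fitted (0.0581).

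Of 14 genes that place or read H3K4 methylation, 1 was higher and 2 lower in gte4, 2 and 2 in eml1 eml2, and 4 and 2 in the triple line. Over the alternatives these counts ran from 0 to 1 higher and 1 to 4 lower in gte4, 0 to 4 and 1 to 2 in eml1 eml2, and 2 to 4 and 0 to 3 in the triple line. Beside them, 12.1%, 11.6% and 15.4% of all tested genes were higher in these lines, and 13.8%, 12% and 18.2% were lower. The median log2 change of the list was -0.12, 0.06 and 0.02. The methyltransferase gene ATX3 stood at 323, 299 and 322 in wild type and at 432, 490.1 and 410.3 in the triple line (0.49, adjusted p = 0.000396). ATXR3, which codes for a major methyltransferase for H3K4 trimethylation, rose from 2213 ± 258 to 2994 ± 211 (0.44, adjusted p = 0.000275; 0.17 with the length trend removed, adjusted p = 0.00853). ATX5 (0.36, adjusted p = 0.0201) and ATX1 (0.33, adjusted p = 0.00907) were also higher there, and with the length trend removed neither passed (adjusted p = 0.117 and 0.0626). ATX5 also lost the call without WT replicate 2 (0.123), without triple replicate 2 (0.0873) or without the trend and robust steps (0.0557), and ATX1 without triple replicate 2 (0.0509).

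In the EDM2 immunity pathway, in which EML genes are known to act, 0 of 6 genes were higher and 3 lower in gte4, 0 passed in eml1 eml2, and 1 was lower in the triple line. Over the alternatives 1 to 3 were lower in gte4, 0 to 1 in eml1 eml2 and 1 to 2 in the triple line. The shares of all tested genes in these lines were 12.1%, 11.6% and 15.4% higher and 13.8%, 12% and 18.2% lower. The median log2 change of the list was -0.26, 0.11 and -0.006. The disease resistance gene AT1G58602 stood at 7456, 5531 and 6050.2 in wild type, 4247, 3772 and 4684 for gte4, 5095, 4725 and 5421 for eml1 eml2, and 4005, 4744 and 4461 for the triple line. All mutant samples were below all wild type samples. Its log2 change was -0.58 in gte4 (adjusted p = 0.00397), -0.31 in eml1 eml2 (adjusted p = 0.0735) and -0.52 in the triple line (adjusted p = 0.00502). In eml1 eml2 it passed with the length trend removed (-0.51, adjusted p = 8.22e-05) and without WT replicate 2 (-0.40, adjusted p = 0.0304). EDM2 itself was 0.27 lower in gte4 (log2 change -0.27, adjusted p = 0.0331), with samples that overlapped wild type. EDM2 did not keep this call in every alternative: the count lower in gte4 fell to 1, while AT1G58602 passed in all 23. EDM2 stood at 1263 ± 91.8 in wild type and 1051 ± 102 for gte4. In eml1 eml2 (1404 ± 125) and the triple line (1319 ± 124) its mean was above wild type, and it did not pass.

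Marker genes of flowers moved with the genotype as well. The summed value of 7 inflorescence genes was 476 to 665 in wild type, 893 to 962 for gte4, 1060 to 1492 for eml1 eml2 and 940.0 to 1216 for the triple line, with 5, 7 and 5 of the 7 called higher in gte4, eml1 eml2 and the triple line. The sum of 4 tapetum genes was 40.2 to 100.5 in wild type and 149 to 275 over the mutants, with 2, 2 and 4 of the 4 called higher. The sum of 6 root genes was 2765 to 3236 in wild type, 4272 to 4682 for gte4, 3329 to 3382 for eml1 eml2, and 4303 to 4516 for the triple line, with 2, 1 and 2 of the 5 tested called higher. Most of the root sum was PYK10, a beta-glucosidase, at 1742 ± 316 in wild type, 2965 for gte4, 1900.3 for eml1 eml2 and 2993 for the triple line, while SCR and COBL9 passed against wild type in no line. Of the 5 leaf genes, 1 was called higher and 1 lower in gte4, 1 and 2 in eml1 eml2, and 1 and 3 in the triple line. Among all tested genes, 12.1%, 11.6% and 15.4% were called higher and 13.8%, 12% and 18.2% lower in these lines. Between eml1 eml2 and the triple line, the inflorescence sums overlapped and the root sums did not. The part of these tissues in the smaller changes of GTE4 in eml1 eml2, of EML3 and of the listed genes was not tested. In bulk RNA, fewer cells of a type and less RNA per cell cannot be told apart.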

How the data were processed

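Per the submitters' processing notes, the authors used bcl2fastq, HISAT2 and edgeR with the genome build TAIR10; versions and the counting program are not given in the sources used here. The deposited values are a normalized read-count signal per gene made by the authors: they are not whole numbers, and 1.60% to 5.95% of values per sample lie within 0.01 of a whole number, so reads were not recovered and depth is unknown. A floor of 4.16e-17 stands in place of some zeros.

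Genes averaging 1 or more across all 12 samples (22315 of 32548) were tested on log2(value + 1) with limma 3.58.1 in R 4.3.3, with 1 coefficient per genotype, a mean-variance trend and robust moderation. Benjamini-Hochberg adjustment ran over all tested genes within each of 7 comparisons, and every adjusted p in the text is from limma at a threshold of 0.05. The script was tested on simulated data. Family sums used exact permutation tests in SciPy 1.17.1. Names, lengths, neighbours and sequences are from RefSeq TAIR10.1, in which all 32548 IDs were found; the build was matched by gene ID, not by position.

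The members and the 8 lists (65 genes) were chosen with earlier results of these data known. Genes named are the members, both neighbours of each, the 3 genes most like each, and up to 4 called, non-overlapping members of each list with the largest change in the triple line; EDM2 was named after its values were seen. The alternatives were other pseudocounts (0.5 and 5), filters and scalings, no trend, only the groups compared, a replicate block, a length trend and each sample left out.

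Sample numbers may pair the genotypes. With each genotype's mean subtracted, the most alike sample of another genotype had the same number for 12 of 12 samples over 22315 genes. Over 16738 genes with a mean of at least 50, members included, this held for 10 of 12. Over the 22315 genes, all 3 same-number pairs correlated above 0.1 for eml1 eml2 with the triple line alone (0.182 to 0.217). Over the 16738 genes they did for 4 of 6 pairs of genotypes. The main fit had no term for the sample number, and the replicate block was run as an alternative.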

Additional observations from a re-analysis of the deposited data

Results flagged for a closer look

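The EML2 change in the triple line differed from what gte4 and eml1 eml2 gave when added: the interaction was -1.77 on the log2 scale (limma adjusted p = 1.59e-05). It was picked out because the EML2 difference between lines with and without gte4 mutated was not alike in 2 backgrounds. That difference was -0.01 for gte4 against wild type and -1.77 for the triple line against eml1 eml2. EML2 was lower in the triple line in 3 of 3 samples, and the interaction kept its direction and its call in every alternative run. Whether the EML2 allele of the triple line is that of the eml1 eml2 line was not tested.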

How the results depend on the processing

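The falls of GTE4 in gte4 and of GTE4 and EML2 in the triple line, and of EML2 in eml1 eml2, kept their direction and call in all 23 alternatives. The smaller changes did not. EML3 in gte4 lost its call with only the 2 genotypes fitted (-0.17) and with the length trend removed (-0.14), and ran from -0.19 to -0.15 with a sample left out. EML3 in the triple line gained one at a minimum mean of 20 (-0.14) and with the length trend removed (-0.20). GTE4 in eml1 eml2 gained one with only 2 genotypes fitted (0.36), and ran from 0.32 to 0.38 with a sample left out. GTE4 in the triple line against gte4 was 0.11 with the length trend removed and ran from 0.16 to 0.50 with a sample left out. With a replicate block, for the pairing by number, EML3 in the triple line passed (-0.14, adjusted p = 0.0440, and -0.20 with the length trend also removed). No other member call changed. The block moved the genes called to 3358 for the triple line against gte4 (main 2131), 682 against eml1 eml2 (370) and 1269 in the interaction (655), and the block with the length trend removed gave 910 and 1487 in the last 2. Without the trend and robust steps, 393 genes were called for the triple line against gte4, 199 against eml1 eml2, 1491 for eml1 eml2 against gte4 and 245 in the interaction. With the length trend removed, 583 were called for the triple line against gte4 and 1483 for eml1 eml2 against gte4 (main 3019). Leaving out 1 sample gave 276 to 3025, 132 to 449, 875 to 3719 and 260 to 701 in the order triple line against gte4, triple line against eml1 eml2, eml1 eml2 against gte4, and interaction. EMB3011 in eml1 eml2 against gte4 turned from 0.22 to -0.017 with the length trend removed, with and without the block. TMM scaling was not run, since it needs a count tool that does not suit these values. The causes were not tested. The EML sum in the triple line was 80.7% of wild type with the length of 1 transcript and 82.3% with no division by length. Depth is unknown, so no counting limit can be given for the low values of GTE4 and EML2.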
